A study of Mus musculus with 12 samples.

Results

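Genes that mark tuft cells, 9 in number, were followed in double-stranded RNA immunoprecipitation sequencing of mouse small-intestinal epithelium: Dclk1, Trpm5, Pou2f3, Il25, Gnat3, Alox5, Ptgs1, Sh2d6 and Avil. They are 9 of the 48526 genes counted, were listed by name, and were found by their Ensembl identifiers, each in 1 row. Of the 9, 7 had enough reads to be tested in every comparison. Gnat3 and Il25 did not.

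The 12 libraries came from 4 female mice aged 3 months. The DKO animals, 2 in number, received tamoxifen at 100 mg/kg in 4 daily injections to delete the lysine acetyltransferase genes Kat2a and Kat2b. The 2 control animals received the same injections of ethanol and corn oil without tamoxifen, so the deletion and the drug changed together and cannot be told apart. Cells were freed with EDTA from the proximal part of the small intestine 2 days after the last injection, per the labels' protocol, while the sample titles speak of the whole intestine. The Cre driver and the alleles are not given in the sources used here. Each animal gave an input library and pulldowns with J2 and K1, antibodies that bind double-stranded RNA without regard to sequence.

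Tuft cells are rare chemosensory cells of the epithelium. They sense luminal signals through a taste-like cascade that ends in calcium release and opening of the Trpm5 channel, and they release interleukin 25, cysteinyl leukotrienes, prostaglandins and acetylcholine. In the small intestine they are best known for starting the type 2 response to worms and protists, in which interleukin 13 drives the progenitors towards more tuft and goblet cells. In bulk RNA, more or fewer tuft cells and more or less RNA per tuft cell cannot be told apart.

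The deleted genes were checked first. In input, Kat2b had 359 and 343 counts in control and 118 and 114 in DKO, a log2 fold change of -1.51 (SE 0.165, edgeR adjusted p = 6.32e-04). Kat2a had 222 and 228 counts in control and 84 and 148 in DKO, a log2 fold change of -0.88 (SE 0.227, edgeR adjusted p = 0.0205). Both were thus lower in both DKO animals, with reads left. Input libraries held 10307281 to 11474107 gene counts and control pulldowns 13308021 to 16139531. Fewer gene counts were in the DKO pulldowns: J2 gave 5826361 and 2691285, and K1 gave 5559033 and 2220291. Reads aligned to several places, which enter no gene count, were 15.8% to 46.7% of the listed reads in these 4 libraries and 5.54% to 8.05% in the other 8. Epithelial markers were abundant, with 8 genes summing to 7549 to 9118 CPM in input, where CPM is a gene's count relative to the TMM-scaled library size.

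In the unselected input RNA, some genes of the tuft programme stood at higher levels in DKO. Of the 7 members tested, 4 rose and 0 fell: Trpm5, Sh2d6, Ptgs1 and Avil. Among all 15088 genes tested, 18.8% were called higher, 17.1% lower and 35.9% in either direction. These are edgeR calls, and DESeq2 called 3 of the 7 members. The median log2 fold change of the 7 members was 0.78, beside a median of -0.00 for all genes tested. The summed level of the 9 members was 75.5 to 82.9 CPM in control and 173 to 182 CPM in DKO. Trpm5 and Sh2d6 carried most of this rise, with means of 20.9 and 15.6 CPM in control and 82.1 and 37.4 CPM in DKO. Dclk1, a widely used marker of these cells, did not pass the test.

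The 250 bases before the start of transcription are shown for the 4 members that rose in input, since Pou2f3, the factor that tuft cells need, binds octamer sequences. They come from RefSeq on GRCm38.p6, whose table held 7 of the 9 members, Pou2f3 and Il25 being the others. All run 5′ to 3′ on the strand of the gene, and capitals mark the first 7 letters of the octamer, ATGCAAA, or its reverse complement TTTGCAT. The window of Sh2d6 belongs to a RefSeq start inside the span that GENCODE gives this gene.
Trpm5, chr7:143094643-143094892, minus strand: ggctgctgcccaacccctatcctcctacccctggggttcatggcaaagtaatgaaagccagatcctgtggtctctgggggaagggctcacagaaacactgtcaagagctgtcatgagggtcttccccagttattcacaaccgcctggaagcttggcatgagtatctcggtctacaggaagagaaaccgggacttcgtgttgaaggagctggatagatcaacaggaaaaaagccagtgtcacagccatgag
Sh2d6, chr6:72520037-72520286, minus strand: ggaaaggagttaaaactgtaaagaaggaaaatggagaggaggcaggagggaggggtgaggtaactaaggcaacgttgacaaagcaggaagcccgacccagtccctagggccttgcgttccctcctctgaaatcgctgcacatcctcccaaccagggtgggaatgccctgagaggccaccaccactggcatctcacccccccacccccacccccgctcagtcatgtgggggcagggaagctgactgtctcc
Ptgs1, chr2:36230176-36230425, plus strand: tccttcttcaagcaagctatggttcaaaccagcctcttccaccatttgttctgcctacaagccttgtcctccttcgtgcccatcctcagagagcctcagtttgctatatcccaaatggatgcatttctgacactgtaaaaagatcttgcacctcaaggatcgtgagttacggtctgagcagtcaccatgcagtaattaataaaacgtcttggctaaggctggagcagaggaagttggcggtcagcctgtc
Avil, chr10:127000459-127000708, plus strand: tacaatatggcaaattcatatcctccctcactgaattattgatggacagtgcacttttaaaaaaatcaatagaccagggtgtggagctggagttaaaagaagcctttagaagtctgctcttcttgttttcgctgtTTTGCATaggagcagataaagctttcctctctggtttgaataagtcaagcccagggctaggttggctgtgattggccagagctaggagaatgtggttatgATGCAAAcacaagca
The window of Avil held both forms, at positions -15 and -115 from the start. The same 7 letters, searched on both strands, were found in 1 of the 8 windows of the members and in 4.12% of all 32851 promoter windows of the table. The full octamer ATGCAAAT (reverse complement ATTTGCAT), which contains these 7 letters, was in 0 of the 8 windows and in 1.6% of all windows. No match says only that these letters are not in this window.

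Trpm5 (chr7:143069153-143094642, minus strand, GRCm38) encodes the cation channel at the end of the taste cascade. It had 216 and 260 counts in control input and 991 and 747 in DKO input, or 20.9 ± 1.27 against 82.1 ± 23.1 CPM (SD, n = 2). The groups did not overlap, with a log2 fold change of 1.97 (SE 0.201, edgeR adjusted p = 4.83e-04). This call held in 10 of 10 alternative settings, with log2 fold changes of 1.66 to 2.23 and adjusted p-values up to 0.00879. Trpm5 shares 220 exon bases with Tssc4 on the other strand, 3.44% of its exons, and the counts are unstranded. Tssc4 itself had 88 and 96 counts in control and 109 and 147 in DKO.

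Sh2d6 (chr6:72513641-72521707, minus strand) encodes an adaptor protein with an SH2 domain. It had 159 and 197 counts in control input and 311 and 498 in DKO input, or 15.6 ± 1.27 against 37.4 ± 9.14 CPM (SD, n = 2). Both DKO animals were above both controls, with a log2 fold change of 1.26 (SE 0.193, edgeR adjusted p = 0.00253). The call held in 9 of 10 alternatives, ending in the fit of all 12 libraries (1.22, adjusted p = 0.127).

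Avil (chr10:127000709-127020994, plus strand) encodes advillin, which binds the actin bundles of the long microvilli of tuft cells. It had 97 and 111 counts in control and 158 and 178 in DKO, or 9.13 ± 0.231 against 15.7 ± 0.0212 CPM (SD, n = 2), a log2 fold change of 0.78 (SE 0.174, edgeR adjusted p = 0.0117). Ptgs1 (chr2:36230426-36252272, plus strand) encodes cyclooxygenase 1, the first enzyme of prostaglandin synthesis. It had 31 and 41 counts in control and 65 and 68 in DKO, or 3.15 ± 0.402 against 6.22 ± 0.334 CPM (SD, n = 2), a log2 fold change of 0.97 (SE 0.248, edgeR adjusted p = 0.0196). For both genes the groups did not overlap. Both calls were lost without either control library: the adjusted p was then 0.085 and 0.0716 for Avil and 0.142 and 0.057 for Ptgs1, and over the 10 alternatives it ran from 0.00327 to 0.231 for Avil and from 0.00423 to 0.235 for Ptgs1. With all 12 libraries in a single fit neither gene was called, and DESeq2 did not call Ptgs1 (DESeq2 adjusted p = 0.0662). Avil shares 165 exon bases with Tsfm, which had 122 and 119 counts in control and 64 and 115 in DKO.

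The other members did not pass in input. Dclk1 (chr3:55242364-55539068, plus strand), which encodes a kinase that binds microtubules, had 186 and 248 counts in control and 192 and 277 in DKO. Its groups overlapped, at 19.0 ± 2.52 and 21.7 ± 3.75 CPM (SD, n = 2), with a log2 fold change of 0.20 (SE 0.182, edgeR adjusted p = 0.437). Pou2f3 (chr9:43123939-43210369, minus strand), the gene of the octamer-binding factor, had 42 and 46 counts in control and 43 and 68 in DKO (log2 fold change 0.41, SE 0.269, edgeR adjusted p = 0.269). Alox5 (chr6:116410077-116461178, minus strand), which encodes the lipoxygenase that begins leukotriene synthesis, had 85 and 84 counts in control and 65 and 120 in DKO (log2 fold change 0.20, SE 0.274, edgeR adjusted p = 0.602). A p that misses the threshold does not show that these levels were alike.

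Gnat3 and Il25 were near 0 throughout. Gnat3 (chr5:17962549-18019834, plus strand), which encodes the taste G protein gustducin, had 1 and 3 counts in control input, 4 and 5 in DKO input, and 0 to 4 in the pulldowns. Il25 (chr14:54932695-54935837, plus strand), the gene of the cytokine, had 0 counts in both control inputs, 0 and 3 in the DKO inputs, and at most 2 in any pulldown. Nothing about a difference can be said for either.

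Per kilobase of exon, Sh2d6 was the most abundant member in control input, at 9.23 ± 0.749 CPM per kb (SD, n = 2). Trpm5 followed at 3.26 ± 0.199, Avil at 2.69 ± 0.0681 and Alox5 at 1.81 ± 0.142 CPM per kb. Pou2f3 and Dclk1, at 1.25 ± 0.0071 and 1.24 ± 0.165 CPM per kb, did not differ beyond their spread by this length, and Ptgs1 was at 0.811 ± 0.103. The length joins all annotated exons of a gene, 15296 bases for Dclk1 and 3088 for Pou2f3. Their longest coding transcripts have 7962 and 2610 bases, so the place of Dclk1 in this order depends on the length used. In DKO input the order began with Sh2d6 at 22.1 ± 5.41 and Trpm5 at 12.8 ± 3.61 CPM per kb, followed by Avil at 4.61 ± 0.00624. Within a library, the ratio of Trpm5 to Dclk1 counts was 1.16 and 1.05 in the control inputs and 5.16 and 2.70 in the DKO inputs. Dclk1 and Trpm5, both used to mark the same cells, thus stood in a different ratio in the 2 genotypes.

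**Figure D1:**
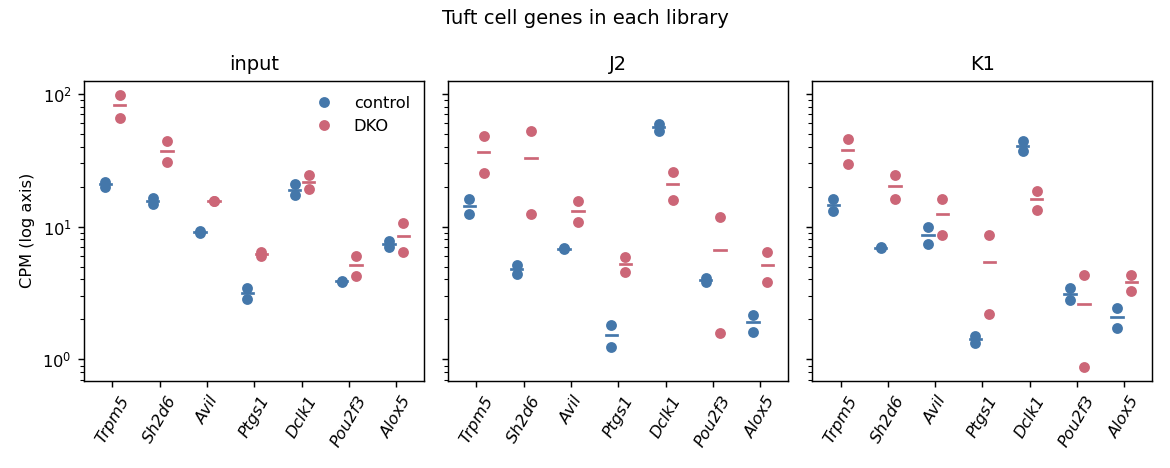
Level of each tested member in each library, in CPM on a log axis, for input, J2 and K1, each scaled separately. Points are single animals (2 control, 2 DKO) and short lines the group means. Trpm5, Sh2d6, Avil and Ptgs1 lie higher in both DKO inputs than in both control inputs, while Dclk1 overlaps in input and lies lower in DKO in both pulldowns.

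The wider tuft programme was read from 41 further genes, of which 34 were tested in input. Of these, 11 rose and 0 fell, where 18.8% of all genes tested were called higher, 17.1% lower and 35.9% in either direction. Their median log2 fold change was 0.54, which stays at 0.54 with Ptges at its lower bound. The count was 6 without input control replicate 1, 17 without a filter on low counts and 2 in a fit of all 12 libraries. Among the taste cascade genes, Itpr2, which encodes a calcium release channel, rose by a log2 fold change of 0.83 (edgeR adjusted p = 0.0033) and Ffar3, which encodes a receptor for short-chain fatty acids, by 1.31 (edgeR adjusted p = 0.0305). Plcb2 (0.05), Itpr3 (0.42) and Tas1r3 (-0.34), given as log2 fold changes, did not pass. Among the eicosanoid and acetylcholine genes, Ptges, which encodes a prostaglandin E synthase, went from 3 and 3 counts in control to 159 and 170 in DKO, at least 58.2-fold higher (edgeR adjusted p = 6.18e-05). Chat, the gene of the acetylcholine-forming enzyme, had 11 and 10 counts in control and 16 and 22 in DKO and did not pass (edgeR adjusted p = 0.0823). Alox5ap (0.82), Hpgds (0.26) and Ltc4s (-0.78), given as log2 fold changes, did not pass either. Ltc4s went the other way, from 16 and 17 counts in control to 8 and 10 in DKO. Of the 5 tested transcription factor genes (Gfi1b, Spib, Hmx3, Sox9 and Atoh1) edgeR called 0, with log2 fold changes of 0.12 to 1.28 and adjusted p-values of 0.0651 or more. An unadjusted p under 0.05 was reached by 2 of them, and DESeq2 called 0.

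Of the 19 tested genes in the list of other markers, 8 rose. Nradd rose by a log2 fold change of 1.68, Rgs13, a regulator of G protein signalling, by 1.36, Bmx, a tyrosine kinase gene, by 1.19 and Siglecf, a sialic acid receptor gene that eosinophils also express, by 1.02. Skap2 rose by 1.01, Kctd12 by 0.97, Matk by 0.71 and Atp2a3, which encodes a calcium pump of the endoplasmic reticulum, by 0.63, with edgeR adjusted p-values of 0.00111 to 0.0317 for these 8 genes. Plcg2, Lrmp and Ptprc lay lower in DKO without passing, at -0.42, -0.38 and -0.43 on the log2 scale. The summed level of the taste list was 356 to 372 CPM in control input and 453 to 548 CPM in DKO input. That of the eicosanoid and acetylcholine list was 7.37 to 7.58 and 23.7 to 24.9 CPM. The sums overlapped for the transcription factor list, at 71.0 to 82.4 and 78.7 to 111 CPM. They also overlapped for the list of other markers, at 1342 to 1370 and 1317 to 1364 CPM. Such sums lean on abundant genes. Itpr3, which did not pass, made up most of the taste sums, with means of 303 CPM in control and 405 CPM in DKO. Ptges carried most of the eicosanoid rise, from 0.264 to 15.4 CPM. Plac8, not called, made up most of the sums of other markers, at 905 and 767 CPM. Gene by gene, a change was thus measured for part of the programme and not for the rest.

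**Figure D2:**
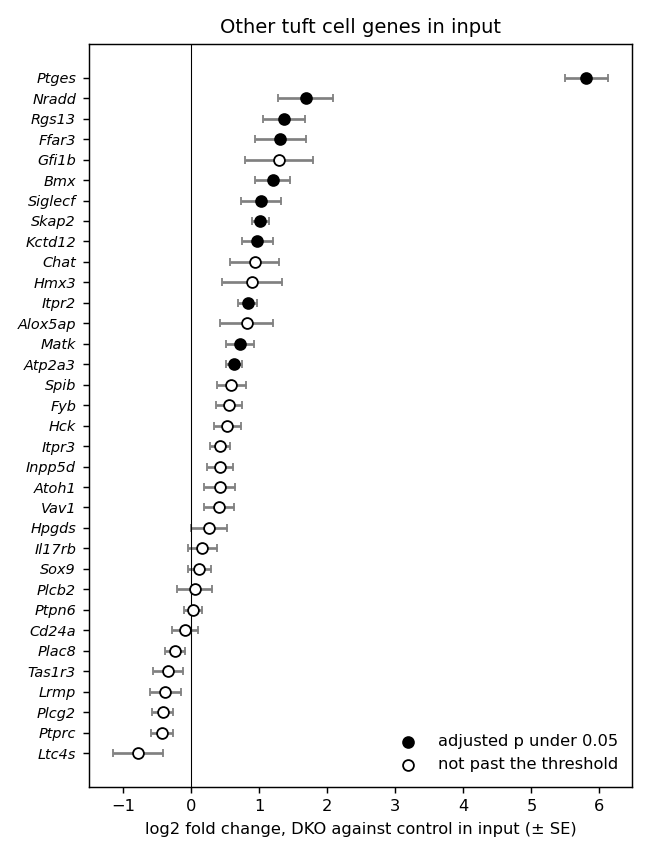
Log2 fold change of DKO against control in input for the 34 tested tuft cell genes that are not members, with standard errors. Filled points passed an adjusted p of 0.05. The 11 filled points all lie above 0, Ptges farthest, and 7 genes lie below 0 without passing.

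Genes of the type 2 circuit and of other cell types moved beside these. Retnlb, a goblet cell gene known as a target of interleukin 13, had 6 and 3 counts in control and 170 and 885 in DKO (log2 fold change 6.87, edgeR adjusted p = 0.00172). Il4ra, which encodes the receptor chain shared by interleukins 4 and 13, had 824 and 719 counts in control and 2303 and 1936 in DKO (log2 fold change 1.55, edgeR adjusted p = 9.05e-04). Of the 10 genes of this list 5 were tested, and these 2 were the ones called. The 4 cytokine genes of the list, Il4, Il5, Il9 and Il13, and the receptor gene Il1rl1 had too few reads to test.

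Among all genes tested in input, 18.8% were called higher and 17.1% lower. Of 14 tested leukocyte markers, 8 fell and 1, Csf1r, rose in DKO input, with a median log2 fold change of -0.68. The summed level of all 19 was 166 to 170 CPM in control and 103 to 130 CPM in DKO. Alox5, Ptgs1 and several of the other tuft genes are also expressed by leukocytes. Of 10 enteroendocrine markers, 6 rose and 0 fell, with a median of 0.63 and sums of 265 to 294 CPM in control and 361 to 492 CPM in DKO. Of 7 mast cell markers 2 were tested, with Kit lower and Mcpt1 higher. Of 8 stromal and endothelial markers 3 were tested and 0 were called by edgeR (0 at an unadjusted p under 0.05, 0 by DESeq2), with sums of 2.59 to 6.78 CPM in control and 4.66 to 8.44 CPM in DKO. Of the 8 epithelial markers 1 rose, Krt18. The part of these cell types in the levels of the tuft genes was not tested.

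The pulldowns were then compared with the input of the same animals, which asks whether a transcript is over-represented in RNA bound by the antibodies. The fits as designed compared groups of libraries and did not pair them by animal. Pairing, with the animal as a block, was an alternative. Dclk1 was the 1 member of the 7 tested that was enriched in control. The control J2 libraries held 953 and 721 of its counts, the control K1 libraries 811 and 582, and the inputs 186 and 248. Measured in the same animal, the log2 CPM of J2 minus input was 2.13 and 1.70, and that of K1 minus input was 1.69 and 1.17. The fitted log2 enrichment was 1.93 for J2 (SE 0.266, edgeR adjusted p = 0.0032) and 1.44 for K1 (SE 0.224, edgeR adjusted p = 0.00103). The K1 call held in 15 of 15 alternatives (adjusted p up to 0.045) and the J2 call in 14 of 15, missing the threshold at 0.0554 without input control replicate 1.

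In control J2, 2 members were called, Dclk1 higher and Alox5 lower, where 29.8% of all genes were called, 15.2% higher and 14.6% lower. In control K1, 3 members were called, Dclk1 higher and Alox5 and Sh2d6 lower, where 39.8% of all genes were called, 19.7% higher and 20.1% lower. Alox5 had 26 and 30 counts in J2 and 45 and 27 in K1 of the control animals, with log2 enrichments of -1.60 (SE 0.382, edgeR adjusted p = 0.0173) and -1.48 (SE 0.341, edgeR adjusted p = 0.00655). Sh2d6 had 129 and 109 counts in control K1, with a log2 enrichment of -0.82 (SE 0.252, edgeR adjusted p = 0.0256). The Alox5 calls ended in 5 of 15 alternatives for J2 (-1.98 to -1.03, adjusted p from 0.00107 to 0.522), thinning and the fits without any 1 of the 4 control libraries, and in 3 of 15 for K1 (adjusted p up to 0.405), thinning and the fits without input control replicate 1 or K1 control replicate 2. The Sh2d6 call ended in 6 of 15 (-2.24 to -0.73, adjusted p from 0.00546 to 0.263): thinning, the fit of all 12 libraries and the fits without any 1 of the 4 control libraries. In J2 it stood at -1.33 (SE 0.528, edgeR adjusted p = 0.0914), and it was called there with the animal as a block (adjusted p = 0.0405). Trpm5, Avil, Pou2f3 and Ptgs1 lay between -0.79 and 0.41 in both control pulldowns and did not pass.

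The transcript of Dclk1 differs from the other members in length. Its longest coding transcript has 7962 bases, a length reached by 5.83% of 10912 genes with a median of 3193 bases, and the other members have 1064 to 4123. The longest stretch of it whose exact reverse complement lies elsewhere in the transcript has 14 bases, reached by 14.3% of these genes, against 9 to 12 bases in the other members and a median of 12. These genes were not matched to Dclk1 in length, and the transcript used need not be the one expressed here. Whether length or this stretch bears on the enrichment was not tested. Dclk1 shares 87 exon bases with the antisense gene Gm42609, which had 0 or 1 counts in J2 and 0 to 3 in K1.

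In DKO, Dclk1 was not called enriched with either antibody. The DKO libraries had 70 and 84 Dclk1 counts in J2 and 61 and 39 in K1, beside 192 and 277 in input. Per animal, J2 minus input was 0.17 and 0.38 and K1 minus input was -0.22 and -0.28 in log2 CPM, below both control animals for either antibody. The fitted log2 enrichment in DKO was 0.29 for J2 (SE 0.27, edgeR adjusted p = 0.444) and -0.28 for K1 (SE 0.248, edgeR adjusted p = 0.404).

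The difference of enrichment between genotypes was tested as an interaction. For K1 the difference for Dclk1, DKO minus control, was -1.72 on the log2 scale (SE 0.333, edgeR adjusted p = 0.0235), beside a median of -0.20 for all genes tested. It was the 1 member called of 7, where 5.47% of all genes were called and 4.10% were called lower. For J2 the difference was -1.64 (SE 0.375, edgeR adjusted p = 0.0586), and edgeR called 0 of 7 members, where 2.71% of all genes were called. At an unadjusted p under 0.05 there was 1 member, Dclk1, and DESeq2 also called 1. Leaving out any 1 of the 8 libraries, the J2 difference of Dclk1 ran from -2.11 to -1.40. These ends came from the fits without J2 DKO replicate 2 and without J2 DKO replicate 1. With the animal as a block 0 genes in all were called for J2, against 432 without it, and 1912 for K1, against 870, and the K1 difference of Dclk1 was -1.69 (edgeR adjusted p = 0.00352).

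The K1 call ended in 7 of 15 alternatives, with values of -1.91 to -1.40 and adjusted p-values of 9.09e-04 to 0.345. These were counts thinned to equal depth (-1.43, adjusted p = 0.345), all 12 libraries in a single fit (adjusted p = 0.0678), and the fits without input control replicate 1 (0.136) or 2 (0.117), K1 control replicate 1 (0.134) or input DKO replicate 1 (0.0827) or 2 (0.115).

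**Figure D3:**
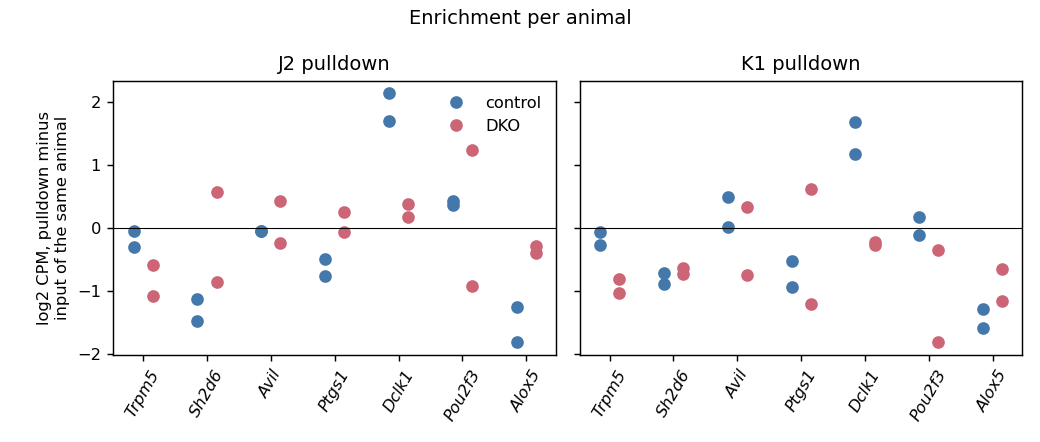
Pulldown minus input of the same animal, in log2 CPM, for the 7 tested members with J2 and with K1. Each point is an animal, 2 control and 2 DKO. Dclk1 lies at 1.17 or higher in the control animals and at 0.38 or lower in the DKO animals, and its gap between the groups is the widest of the 7 with both antibodies.

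No other member differed in enrichment by this test. Trpm5 lay lower in both DKO animals than in both controls with either antibody, at -0.58 and -1.08 for J2 and -0.82 and -1.04 for K1 against -0.31 to -0.05 in control, with differences of -0.58 (SE 0.524, edgeR adjusted p = 0.508) and -0.71 (SE 0.394, edgeR adjusted p = 0.309). Alox5 lay higher in both DKO animals with either antibody, with differences of 1.22 for J2 (SE 0.547, edgeR adjusted p = 0.204) and 0.48 for K1 (SE 0.531, edgeR adjusted p = 0.63). In DKO K1 against input, 1 member was called, Trpm5 lower at -0.88 (SE 0.281, edgeR adjusted p = 0.0336), where 35.6% of all genes were called and 21.0% were called lower. The block also called Sh2d6 there, at -0.69 (edgeR adjusted p = 0.0207). The call of Trpm5 ended in 8 of 15 alternatives, with values of -1.24 to -0.57 and adjusted p-values of 0.00228 to 0.236. In DKO J2 against input edgeR called 0 of 7 members, 0 at an unadjusted p under 0.05 and 0 by DESeq2, where 25.7% of all genes were called. With only 1 of the 2 DKO J2 libraries, Sh2d6 and Pou2f3 were called there in opposite directions, at 0.64 and 1.33 without replicate 1 and -1.28 and -1.39 without replicate 2.

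Compared directly between genotypes, the pulldowns carried both patterns. In K1, Trpm5 had 241 and 256 counts in control and 209 and 62 in the shallower DKO libraries. Its level rose from 14.7 ± 2.29 to 37.8 ± 11.5 CPM (SD, n = 2), a log2 fold change of 1.38 (SE 0.32, edgeR adjusted p = 0.0204). Tssc4, which overlaps it, had a log2 fold change of 1.31 there (edgeR adjusted p = 0.0183). Sh2d6 rose from 6.95 ± 0.0347 to 20.3 ± 5.78 CPM (SD, n = 2), a log2 fold change of 1.53 (SE 0.346, edgeR adjusted p = 0.019). Dclk1 fell from 40.4 ± 4.86 to 16.0 ± 3.73 CPM (SD, n = 2), a log2 fold change of -1.36 (SE 0.302, edgeR adjusted p = 0.0179). These were 3 of 7 members, where 27.1% of all genes were called, 13.2% higher and 13.9% lower. Each of the 3 calls was lost without K1 control replicate 1 or 2, at adjusted p-values of 0.233 and 0.097 for Trpm5, 0.181 and 0.172 for Sh2d6, and 0.189 and 0.0721 for Dclk1. Over 11 alternatives these adjusted p-values ran from 5.90e-04 to 0.233, 0.00255 to 0.181 and 2.49e-04 to 0.189.

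In J2 edgeR called 0 of 7 members, where 12.2% of all genes were called. An unadjusted p under 0.05 was reached by 5, and DESeq2 called 1. Without J2 DKO replicate 1 or 2, a lone DKO library was left. The log2 fold changes were then -1.18 and -1.73 for Dclk1, 0.755 and 1.84 for Trpm5, and 3.38 and 1.45 for Sh2d6. Dclk1 stood at 59.4 and 52.4 CPM in control J2 and 15.8 and 25.9 CPM in DKO J2, groups that did not overlap (log2 fold change -1.43, SE 0.372, edgeR adjusted p = 0.062). Trpm5 (1.36), Sh2d6 (2.75), Ptgs1 (1.75), Alox5 (1.43) and Avil (0.96) had log2 fold changes above 0 without passing, at edgeR adjusted p-values of 0.0649 to 0.163. The DKO J2 values of Sh2d6 were far apart, at 12.4 and 52.8 CPM, as were those of Pou2f3, at 1.58 and 11.7 CPM from 7 and 38 counts. Without J2 DKO replicate 1 the log2 fold change of Pou2f3 was 1.49 (edgeR adjusted p = 0.00319), and without replicate 2 it was -1.24 (edgeR adjusted p = 0.0463). Stromal and endothelial markers summed to 33.3 to 155 CPM in DKO J2 and 84.3 to 192 CPM in DKO K1, and to 2.87 to 35.0 CPM in the control pulldowns. In K1, 7 of 9 tested enteroendocrine markers rose, with sums of 87.0 to 116 CPM in control and 242 to 327 CPM in DKO, and 3 of 14 leukocyte markers rose, with sums of 53.6 to 61.1 and 81.3 to 92.5 CPM. Their part in these values was not tested.

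**Figure D4:**
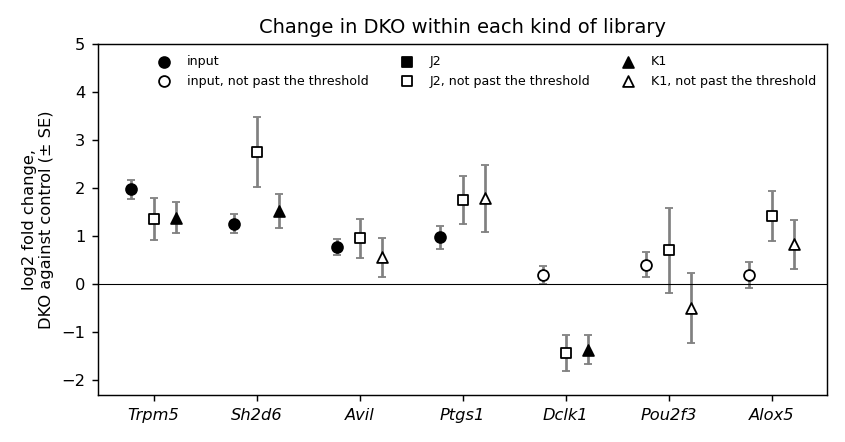
Log2 fold change of DKO against control, with standard errors, for each tested member in input (circles), J2 (squares) and K1 (triangles). Filled symbols passed an adjusted p of 0.05, and none of the J2 values did. Dclk1 lies near 0 in input and at -1.43 and -1.36 in J2 and K1, while Trpm5 and Sh2d6 lie above 1 in all 3 kinds of library.

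Of the 41 further tuft genes, 29 were tested between genotypes in each pulldown. In J2, 1 was called, Ptges (log2 fold change 5.88, edgeR adjusted p = 0.0306), where 12.2% of all genes were called. Ptges went from 1 and 4 counts in control to 69 and 19 in DKO. In K1, 5 rose and 1 fell: Ptges was at least 57.8-fold higher, Fyb, an adaptor gene shared with leukocytes, rose by a log2 fold change of 2.03 and Cd24a, a surface protein gene, fell by 1.45, with edgeR adjusted p-values of 0.0393 or less. Among all genes tested in K1, 13.2% were called higher and 13.9% lower. Retnlb was called in both pulldowns: in J2 it went from 4 and 7 counts to 73 and 28 in DKO, and in K1 from 3 and 0 to 105 and 63. Of the 4 type 2 genes tested in K1, 2 rose and 1 fell: Retnlb, Il4ra, at a log2 fold change of 2.42 (edgeR adjusted p = 0.00726), and Il13ra1, which encodes a receptor chain for interleukin 13, at -1.40 (edgeR adjusted p = 0.0428).

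Against input, 3 of 36 further tuft genes were called lower and 0 higher in control J2, namely Cd24a (-1.67), Ptpn6 (-1.34) and Siglecf (-1.29). Among all genes tested there, 15.2% were called higher and 14.6% lower. In control K1, 3 of 35 were called higher and 9 lower, where 19.7% of all genes were called higher and 20.1% lower. The transcription factor gene Hmx3 was enriched by 1.84 on the log2 scale, and the receptor genes Il17rb, for interleukin 25, and Tas1r3, for sweet and umami taste, stood at -1.54 and -1.28. In DKO, 2 were called higher and 5 lower with J2, where 25.7% of all genes were called. With K1, 2 were called higher and 6 lower in DKO, where 35.6% of all genes were called, 21.0% of them all as lower. Rgs13, at -2.83 and -3.56, Cd24a, at -2.76 and -2.60, and Plac8, at -2.17 and -2.13, had the lowest log2 values of these genes with J2 and K1. Rgs13 rested on 2 and 5 counts in DKO J2 and 1 and 3 in DKO K1. The difference of enrichment was called by edgeR for 0 of 36 genes with J2 (8 at an unadjusted p under 0.05, 2 by DESeq2) and for 0 of 35 with K1 (4 and 0). Over all genes tested, edgeR called 2.71% with J2 and 5.47% with K1.

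Across the 12 libraries the members did not form a single profile. Log2 CPM of Dclk1 had a Pearson r of -0.77 with Alox5, -0.68 with Sh2d6 and -0.65 with Trpm5, whereas Ptgs1 and Sh2d6 had 0.83, Alox5 and Sh2d6 0.81 and Trpm5 and Avil 0.79. Of 10836 genes, those closest to the mean profile of the 7 members were Casp4 (r = 0.95), Foxa1 (0.949), Pea15a (0.947), F3 (0.947) and Ccdc58 (0.945), beside a median r of -0.18. Those closest to Dclk1 were Pcgf3 (r = 0.988), Psd3 (0.986), Map3k20, Foxk2 and Lats1 (0.974 each), beside a median r of 0.14. High values were common, with a 99th percentile of r of 0.85 for the mean profile and 0.923 for Dclk1. These correlations are descriptions over 12 libraries from 4 animals, and the 3 libraries of an animal are not independent. The libraries differ in depth and kind, and the part of these differences in r was not tested.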

How the data were processed

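The values are the whole-number read counts per gene that the authors deposited, 1 file per library. Per the submitters' processing notes, the tools were FastQC, STAR 2.7.10b, SAMtools 1.17, UMI-tools 1.1.4, HTSeq 2.0.2, DESeq2 1.40.1, edgeR 3.42.2 and deepTools 3.5.2, with builds mm10 and GRCm38.p4. The annotation is not given in the sources used here. Per the labels, counting ignored strand, so a counted read can come from either strand. Rows that name no gene, 18.7% to 61.2% of the listed reads, were left out. Among them were reads listed as ambiguous between genes, 3.65% to 6.11%, which enter no gene count. Symbols came from GENCODE M21 (GRCm38), matching 48058 of 48526 identifiers without version.

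The test of the counts was that of edgeR 4.0.16 under R 4.3.3 (limma 3.58.1, quasi-likelihood test, TMM, filterByExpr with a minimum count of 10, Benjamini-Hochberg adjusted p under 0.05 over all genes tested): genotypes within each kind of library (4 libraries), and enrichment and its difference per antibody (8 libraries). CPM were scaled within each kind, except per-animal enrichment, which used the scaling of the 8-library fit. Log2 CPM used a prior count of 2. Groups with at most 3 counts in every library were treated as at the floor of 3 counts, a bound for counting error only. SE is the log2 fold change divided by the root of the F statistic. The labels name the animal, which pairs pulldown with input, while the replicate numbers do not pair DKO with control. The fits as designed did not use the pairing by animal. DESeq2 1.42.0, other scalings, no filter, blocks, thinning, all libraries together and leaving out each library were alternatives. The scripts were tested on simulated data.

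The members and lists (further tuft genes, type 2 circuit, leukocytes, mast cells, enteroendocrine cells, stroma and endothelium, epithelium) were chosen with earlier results of these data known. Named were Kat2a, Kat2b, the members, every further tuft or type 2 gene called in input, at most the 5 largest called changes elsewhere, and the 5 genes with the highest r. Il13ra1, genes named as not called, overlapping neighbours and the single cell type markers named were chosen after their values were seen. P-values rest on 2 animals a group.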

Additional observations from a re-analysis of the deposited data

Results flagged for a closer look

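The K1 enrichment of Dclk1 differed between genotypes by -1.72 on the log2 scale (DKO minus control, SE 0.333, edgeR adjusted p = 0.0235), which met the test of a difference between groups. Both DKO animals, at -0.22 and -0.28, lay below both control animals, at 1.69 and 1.17. The DKO K1 values rest on 61 and 39 counts, and the call ended when counts were thinned to equal depth (-1.43, adjusted p = 0.345).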

How the results depend on the processing

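Of 14 calls of members, 2 held in every alternative run: Trpm5 in input and Dclk1 in K1 against input in control. No member called in the fits as designed changed sign in any. Of the values not called there, Pou2f3 and Sh2d6 passed in opposite directions when either DKO J2 library was left out (below). The cause of the changes below was not tested.

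Genes called over the whole table moved by over 1.5 times as follows. In input the count was 1675 with all 12 libraries in a single fit, with members called at 1. Between genotypes in J2 it was 4273 without a filter, 2884 with DESeq2, 718 thinned and 5984 with all libraries, with 2, 1 and 5 members called without a filter, with DESeq2 and with all libraries, and 1 with the replicate block. In K1 it was 1328 thinned, with 1 member. For J2 against input, thinning gave 1437 in control and 775 in DKO, where library size alone and no filter each called 1 member. For K1 against input, thinning gave 1164 genes and 1 member in control, and 1333 genes and 0 members in DKO, where library size alone called 3 members, the replicate block 2 and all libraries 0. The J2 difference was 669 with library size alone, 2453 without a filter, 0 with the replicate block, 2018 with DESeq2, 5 thinned and 898 with all libraries, with 1 member each without a filter, with DESeq2 and with all libraries. The K1 difference was 523 with DESeq2 size factors, 1763 without a filter, 1912 with the replicate block (animals paired), 35 thinned and 59 with all libraries, with 0 members in both of the last. Further tuft genes called in input were 17 without a filter and 2 with all libraries. The block changed no other call count by over 1.5 times.

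Leaving out 1 library at a time, genes called ran from 177 to 8635 between genotypes in J2, 1149 to 5819 in K1, 452 to 9583 for J2 against input in control, 578 to 8261 in DKO, 0 to 7100 for the J2 difference, 3101 to 8941 for K1 against input in control, 2708 to 6795 in DKO and 0 to 3549 for the K1 difference. Members called ran from 2 to 4 in input, 0 to 6 in J2, 0 to 5 in K1, 0 to 4 for J2 against input in control and 0 to 3 in DKO, 0 to 3 for the J2 difference, 1 to 4 and 0 to 3 for K1 against input in control and DKO, and 0 to 2 for the K1 difference. Further tuft genes called in input ran from 6 to 15. A lone library left in a group was assumed to vary like the others.

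Signs changed for these log2 values under the settings named, none of them called in the fit as designed. For J2 against input in control they were Pou2f3 -0.794 and Ptgs1 0.138 (thinned) and Avil 0.0102 (no filter). In DKO they were Alox5 0.0834 (thinned), Ptgs1 -0.222, Sh2d6 -0.00587 and Avil -0.27 (library size alone), Ptgs1 -0.14, Sh2d6 -0.124 and Avil -0.0934 (no filter), and Sh2d6 -0.114 (replicate block). For the J2 difference they were Pou2f3 -0.0663 and Avil -0.104 (no filter) and Pou2f3 -0.0243 (replicate block). For K1 against input in control Pou2f3 was -0.0775 (DESeq2 size factors), -0.185 (library size alone) and -0.0791 (DESeq2). In DKO, Dclk1 was 0.025 and Avil 0.248 (thinned), and Avil was 0.0128 (all libraries). In the K1 difference Ptgs1 was -0.228 (thinned).

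Leaving out 1 library at a time also changed signs. The ranges were -0.206 to 0.51 for Alox5 in input, -1.24 to 1.49 for Pou2f3 in J2, and -1.76 to 0.415 for Pou2f3 and -0.0562 to 0.962 for Avil in K1. For J2 against input they were -0.355 to 0.044 for Trpm5 and -0.179 to 0.0119 for Avil in control, and -0.155 to 0.444 for Dclk1, -1.39 to 1.33 for Pou2f3, -0.152 to 0.109 for Ptgs1, -1.28 to 0.64 for Sh2d6 and -0.392 to 0.299 for Avil in DKO. For the J2 difference they were -1.84 to 1.04 for Pou2f3 and -0.213 to 0.318 for Avil. For K1 against input they were -0.114 to 0.204 for Pou2f3 in control, and -0.494 to 0.00765 for Dclk1, -1.23 to 0.699 for Ptgs1 and -0.634 to 0.316 for Avil in DKO. For the K1 difference they were -0.452 to 1.52 for Ptgs1, -0.167 to 0.458 for Sh2d6 and -0.885 to 0.025 for Avil. The ends for Pou2f3 in J2 passed both ways, at -1.24 (adjusted p = 0.0463) without J2 DKO replicate 2 and 1.49 (0.00319) without replicate 1. So did those for J2 against input in DKO, at -1.39 (0.0378) and 1.33 (0.00752) for Pou2f3 and -1.28 (0.00553) and 0.64 (0.0442) for Sh2d6. The J2 difference of Pou2f3 passed at -1.84 (0.0312) without replicate 2. The 2 DKO J2 animals thus differed in direction for these genes.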
